A study of Mus musculus with 12 samples.

Results

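The integrin subunit and laminin chain genes were followed in the open chromatin of AT2 cells, the alveolar epithelial cells of mouse lung that make surfactant. Members were those protein-coding genes (RefSeq, GRCm38) whose symbols start with Itga or Itgb, without the integrin-binding genes named Itgb1bp or Itgbl, or with Lama, Lamb or Lamc and a number. This gave 38 of 21631 genes: 27 integrin genes (18 alpha and 9 beta subunits) and 11 laminin genes. The assay was Omni-ATAC-seq, which marks open DNA in nuclei by insertions of the Tn5 transposase, and the measure used here was the length under the deposited peaks in a locus, meaning the gene and 10 kb on each side.

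All mice were BALB/c, aged 6 to 8 weeks, and all had received 800000 labelled tumour cells by tail vein 7 days before the lungs were taken. Those cells were of the mammary carcinoma line 4T1 or of the colon carcinoma line CT26, both from BALB/c mice. AT2 cells of the metastatic niche and AT2 cells distal to it were sorted in each model, which gave the groups 4T1 distal, 4T1 niche, CT26 distal and CT26 niche with 3 libraries each. A library came from 50000 sorted cells of 5 pooled lungs. The distal groups are therefore also from tumour-bearing mice, no group without tumour cells was analysed here, and how niche cells were told from distal ones is not given in the labels. The series set out to follow chromatin change in AT2 cells of 2 metastasis models.

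Integrins are pairs of an alpha and a beta subunit that span the plasma membrane and tie the cytoskeleton to matrix or to counter-receptors on other cells. Laminins are trimers of an alpha, a beta and a gamma chain and form the sheet of the basement membrane on which alveolar epithelium sits. Epithelial cells hold that sheet mainly through the laminin receptors Itga3 with Itgb1 and Itga6 with Itgb4, leukocytes carry their own integrins built on Itgb2, Itga4 and Itgb7, and Itgb6, which pairs with Itgav, is an epithelial subunit that releases active TGF-beta from its latent complex.

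Counted by gene, every listed epithelial member had a start site under a peak of all 12 libraries, and no listed leukocyte integrin had. Windows around RefSeq start sites, 250 bases before to 50 after, were available here for 24 of the 38 members (27 windows, GRCm38.p6). Members with such a window are called listed, and the start sites of the others were not examined. A peak of all 12 libraries overlapped 16 of the 27 windows (59.3%), against 39.8% of the 32619 windows of all genes. No library had a peak over 8 windows, against 51.2% of all. The 32619 windows belong to 26794 genes and, unlike the members, were not limited to protein-coding genes. By gene, all 3 listed epithelial integrins (Itga2, Itga3 and Itgb6), all 5 widely expressed integrins (Itgav, Itgb1, Itgb5, Itgb8 and Itga5) and both listed epithelial laminins (Lama5 and Lamb3) had a start site under a peak of every library, and none of the 5 listed leukocyte integrins had. Of those 5, the windows of Itgam, Itgax and Itgb2l met no peak, that of Itga4 met a peak in 2 CT26 niche libraries and that of Itgb7 in 2 4T1 niche libraries. By window the classes were closer: a peak of all 12 libraries overlapped 3 of 5 epithelial integrin, 3 of 3 epithelial laminin and 0 of 5 leukocyte windows. No library had a peak over 2 of the 5 epithelial integrin windows and 3 of the 5 leukocyte windows. Genes not among the windows included Itga6, Itga7, Itgad, Itgae, Itgal, Itgb2, Itgb3, Itgb4, Lama1, Lama3, Lama4, Lamc1 and Lamc3.

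The 250 bases before 5 start sites are shown from RefSeq (GRCm38.p6, the C57BL/6J reference and not the BALB/c genome of these mice), 5′ to 3′ on the strand of the gene. They were chosen to set 2 epithelial genes with an open start site and few CpG (Itgb6, Lamb3) beside an open CpG-rich start site (Itgb1), and beside a start site of Itgb6 and one of Itgam that no peak reached. Capitals mark the motif matches named after the sequences.
Itgb6, internal start site, peak in all 12 libraries (chr2:60673694-60673943, minus strand): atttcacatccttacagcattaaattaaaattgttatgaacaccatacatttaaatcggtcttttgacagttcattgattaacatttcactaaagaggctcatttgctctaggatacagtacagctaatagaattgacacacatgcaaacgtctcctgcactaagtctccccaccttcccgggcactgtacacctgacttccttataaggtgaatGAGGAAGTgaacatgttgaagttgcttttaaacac
Itgb6, outer start site, no peak (chr2:60722604-60722853, minus strand): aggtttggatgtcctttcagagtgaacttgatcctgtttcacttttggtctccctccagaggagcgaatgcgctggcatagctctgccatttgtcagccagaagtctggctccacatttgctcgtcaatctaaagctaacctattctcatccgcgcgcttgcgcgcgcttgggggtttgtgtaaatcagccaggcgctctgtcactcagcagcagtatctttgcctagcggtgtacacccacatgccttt
Lamb3, peak in all 12 libraries (chr1:193301744-193301993, plus strand): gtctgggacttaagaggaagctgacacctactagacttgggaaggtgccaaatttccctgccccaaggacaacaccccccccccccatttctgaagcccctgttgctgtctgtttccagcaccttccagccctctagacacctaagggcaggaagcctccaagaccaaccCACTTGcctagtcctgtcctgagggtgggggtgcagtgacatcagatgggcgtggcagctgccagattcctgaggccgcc
Itgb1, peak in all 12 libraries (chr8:128685404-128685653, plus strand): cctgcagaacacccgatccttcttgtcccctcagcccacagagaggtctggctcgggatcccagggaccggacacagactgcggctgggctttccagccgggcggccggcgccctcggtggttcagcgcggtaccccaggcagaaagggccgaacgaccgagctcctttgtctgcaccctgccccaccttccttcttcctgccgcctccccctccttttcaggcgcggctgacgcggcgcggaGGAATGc
Itgam, no peak (chr7:128062390-128062639, plus strand): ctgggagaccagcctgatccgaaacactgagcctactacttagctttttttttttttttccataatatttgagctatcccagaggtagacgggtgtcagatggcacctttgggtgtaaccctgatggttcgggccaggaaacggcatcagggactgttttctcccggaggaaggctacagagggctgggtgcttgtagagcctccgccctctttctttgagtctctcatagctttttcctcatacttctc

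The stretches were picked to differ in CpG content. The internal Itgb6 sequence holds 3 CpG and 38% G and C, that of Lamb3 2 CpG, that of Itgb1 21 CpG, the unreached outer Itgb6 sequence 11 and that of Itgam 6. Over the whole windows of 300 bases, a peak of all 12 libraries overlapped 5.28% of the 14100 windows with at most 5 CpG. With at least 12 CpG it was 82.6% of 12999 windows. Both shares are over all genes with a window, not only protein-coding genes. Of the member windows, 4 of 9 with at most 5 CpG were overlapped in all 12 libraries (that of the internal Itgb6 site, that of Lamb2 and 2 of Lamb3). The 5 leukocyte windows had a median of 5 CpG and the 5 of widely expressed integrins a median of 20. For the 5 epithelial integrin windows it was 12 and for the 3 epithelial laminin windows 5. Whether the classes differ beyond their CpG content was not tested. Of member windows with at least 12 CpG, 12 of 13 were overlapped in all 12 libraries, the exception being the outer Itgb6 site. The peak over the internal Itgb6 site had a median fold enrichment of 6.40 over background in the authors' lists, that over the Lamb3 site 6.17 and that over the Itgb1 site 6.02, and these are the peak caller's own values.

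The letters of 4 motifs were searched on both strands of the 250 bases: TGANTCA (AP-1), CAAGTG (NKX2-1, the lineage factor of lung epithelium), GGAATG (TEAD) and GAGGAAGT (PU.1, a myeloid factor). No matches overlapped each other in the sequences shown. CAAGTG occurred at Lamb3, on the opposite strand, and at Itgb5, Itga8 and Lamb1, and in 11.6% of all windows. GGAATG occurred at Itgb1, Lamb3 and Itga10 and in 12.6% of all windows, the Lamb3 match being at its other listed start site. GAGGAAGT occurred at Itgb6, Itgav, Itga11 and Itgb2l and in 2.46% of all windows, and TGANTCA at Itgax and in 6.78%. A match describes the letters of a window and no more.

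The lists held 42067 to 66911 peaks covering 31.4 to 51.9 Mb, with the CT26 distal libraries lowest and the 4T1 niche libraries highest in both. The reads behind them are not in the lists (the labels plan for 30 M a sample), so how far depth sets the length of a list was not tested. Lengths were therefore scaled to the mean total covered length before testing, and kb under peaks are unscaled unless said otherwise. All 10 AT2 markers, Sftpc and Nkx2-1 among them, had peaks in every library, with 9.29% to 13.8% of their summed loci under peaks by group. Of 10 leukocyte markers, 6 to 9 had a peak in a library (3.36% to 4.90%), but Ptprc, the pan-leukocyte gene, had one in 2 CT26 niche libraries only and the neutrophil gene S100a8 in 1 4T1 distal library. Of 5 endothelial markers 3 to 4 had a peak (1.20% to 2.38%; none at Emcn), of 5 fibroblast markers 3 to 5 (1.80% to 3.28%) and of 4 platelet markers 3 to 4 (2.45% to 3.13%). Between the sites over both models, the AT2 gene Sftpb passed lower (-0.36 ± 0.07, limma adjusted p = 0.0249; -0.14 without scaling) and the AT1 gene Pdpn higher in the niche (0.65 ± 0.11, limma adjusted p = 0.0197). Of the 5 AT1 markers, 1 (Pdpn) had a positive and 4 a negative change over both models (median -0.03, against -0.04 over all loci). Of the 10 AT2 markers, 2 had a positive and 8 a negative change (median -0.09). Cells were sorted in bulk, so fewer cells of a type and less open chromatin per cell cannot be told apart.

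Across all libraries the median epithelial member was covered about as much as the median gene, and most leukocyte integrins far less. The share of a locus under peaks, averaged over 12 libraries, had a median of 4.42% over the 16823 tested loci (middle range 2.38% to 7.40%). The 5 epithelial integrins had a median of 4.89%, the 4 epithelial laminins 4.96% and the 9 leukocyte integrins 0.802%, with 7 of the 9 below the lower quartile of all loci. Also below it were 1 of the 5 epithelial integrins (Itga2) and 1 of the 4 epithelial laminins (Lama3). A peak in every library was found at 30 of the 38 loci, against 71.2% of the 21631 loci, and the 8 others were Itgal, Itgam, Itgax, Itga4, Itgb2, Itgb2l, Lama2 and Lama4. These values describe the loci and are not compared by a test.

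**Figure D1:**
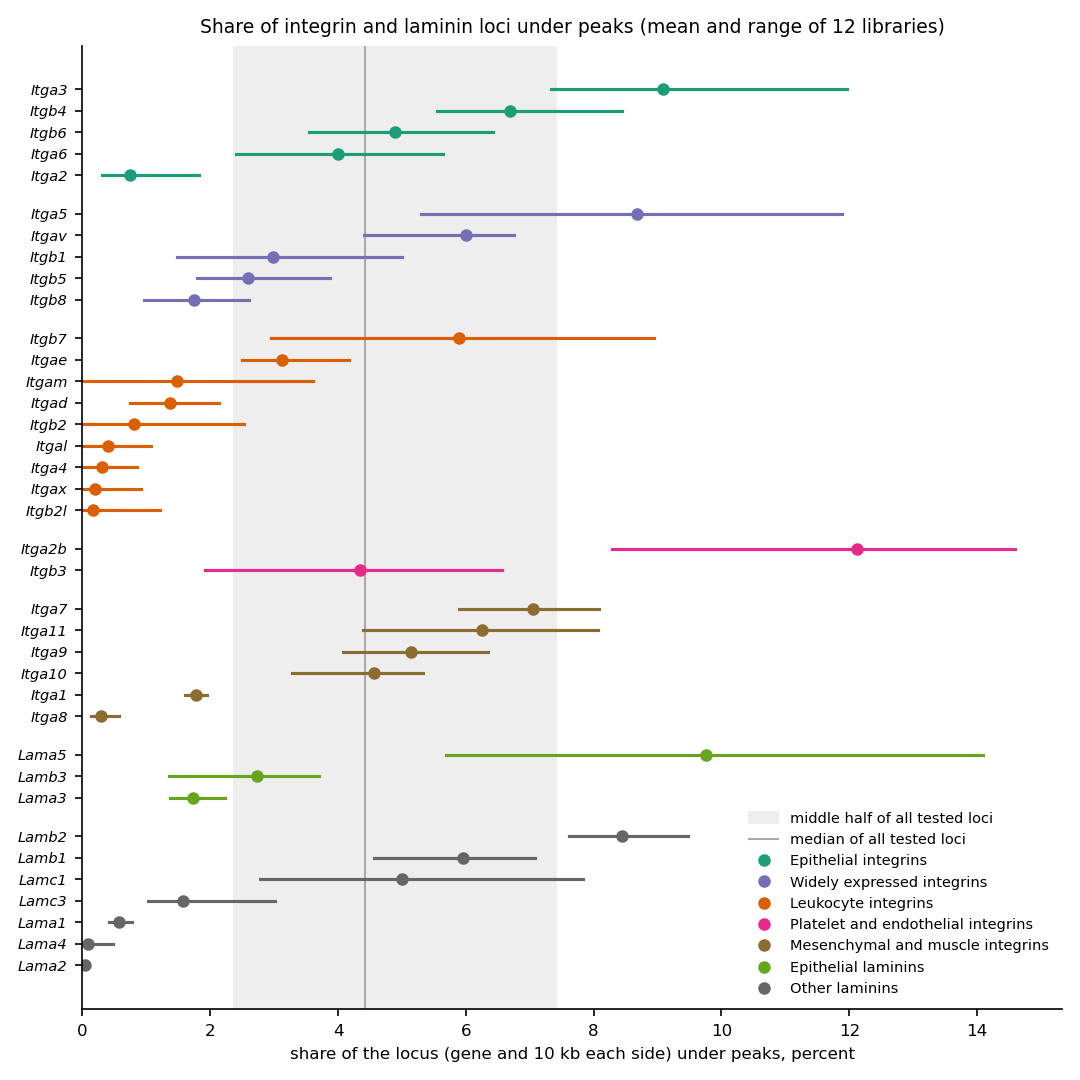
Share of a locus under peaks in percent (point, mean of 12 libraries; line, lowest to highest library), by class of member, with the median and middle range of all tested loci in grey. Itga2b (12.1%), Lama5 (9.76%) and Itga3 (9.09%) lie highest, and 7 of the 9 leukocyte integrins lie left of the grey band.

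Among the epithelial integrins the order was Itga3 (9.09% of the locus), Itgb4 (6.70%), Itgb6 (4.89%), Itga6 (4.00%) and Itga2 (0.750%), a collagen receptor subunit. Each gene lay above the next in this order in 12 of 12 libraries, although the ranges over libraries overlap from Itga3 to Itga6. Other genes share some of these loci: 46.7% of the length covered at Itga3 lies within the gene (Pdk2 is beside it) and 50.2% at Itgb4 (Galk1 and Sap30bp). Over gene bodies alone Itga3 (6.87%) was followed by Itgb6 (5.68%) and Itgb4 (5.36%). Itgb6 (chromosome 2, 60598292 to 60722603) carried 14 regions, all within the gene, of which 6 were held by all 12 libraries. Among the leukocyte integrins, Itgb7 (5.90%) and Itgae (3.12%), the receptor pair for E-cadherin, stood above the rest. Part of that length also lies in other genes: a region of Itgae held by all 12 libraries overlaps Haspin, a gene within Itgae, and 2 regions beside Itgb7 overlap Rarg. The region of Itgad held by all 12 libraries lies outside the gene and overlaps Cox6a2, and the bodies of Itgad and Itgax held no peak in any library. Counted over gene bodies alone, the leukocyte median was 0.377% and that of the epithelial integrins 5.36%.

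Among the laminins the epithelial chains Lama3 and Lamb3 and the alveolar alpha chain Lama5 had peaks in every library, at 1.73%, 2.73% and 9.76% of the locus. The other 7 chains had a median of 1.57%, and spread from the muscle and nerve chain Lama2 (0.0417%) and the vessel chain Lama4 (0.0868%) to Lamb2 (8.44%), whose locus also holds Usp19 and had 23.0% of its covered length within Lamb2 itself. The chains Lamb1 (5.95%) and Lamc1 (5.00%) were covered in all libraries. At Lama5, whose locus is shared with Adrm1, 47.2% of the covered length lies within the gene. Over the gene body alone Lama5 was covered at 6.46%.

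The remaining integrins ranged widely. Of the widely expressed subunits, Itga5, the fibronectin receptor subunit (8.69%), and Itgav (6.01%) stood above Itgb1 (2.98%), Itgb5 (2.60%) and the TGF-beta-activating subunit Itgb8 (1.75%). Of the mesenchymal and muscle subunits, Itga7 (7.06%), the collagen receptor subunit Itga11 (6.26%), Itga9 (5.15%) and Itga10 (4.56%) stood above Itga1 (1.77%) and Itga8 (0.291%), and all 6 had a peak in every library. Itga9 alone held 39 of the members' regions. Itga2b, the platelet subunit, was at 12.1% of its locus with no peak at its start site, and Itgb3 at 4.34%.

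By group, the unscaled shares of the epithelial and of the leukocyte members were both lowest in CT26 distal and highest in 4T1 niche, as was the total covered length. The epithelial integrin loci, summed, were covered at 4.32% ± 0.24 in 4T1 distal, 5.40% ± 0.40 in 4T1 niche, 3.54% ± 0.03 in CT26 distal and 4.08% ± 0.39 in CT26 niche (mean ± SD, n = 3). The leukocyte integrin loci were covered at 1.57% ± 0.13, 2.01% ± 0.20, 0.903% ± 0.18 and 1.16% ± 0.28 in the same order. The niche libraries lay above the distal libraries of their model in both classes in 4T1 and for epithelial integrins in CT26, whereas the CT26 leukocyte values overlapped. Every CT26 library lay below every 4T1 library for the leukocyte integrins. After scaling, the epithelial integrins stood at 4.12%, 4.47%, 4.51% and 4.25% in the same order of groups, close to level. The scaled means of the leukocyte integrins were 1.51%, 1.67%, 1.16% and 1.20%, lower in the CT26 groups. Single libraries of the models then overlapped (1.45% in CT26 distal library 2 and 1.35% in 4T1 distal library 2).

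The ratio of the epithelial to the leukocyte share was 2.76 ± 0.35 in 4T1 distal, 2.69 ± 0.15 in 4T1 niche, 4.04 ± 0.87 in CT26 distal and 3.61 ± 0.62 in CT26 niche (mean ± SD, n = 3). All 6 CT26 ratios (3.18 to 5.00) lay above all 6 4T1 ratios (2.46 to 3.15), with the nearest pair differing by less than the spread within a group. Without Itgam, left out after the data were seen, the ratios of the models overlapped (3.01 to 4.30 in CT26 and 2.60 to 3.31 in 4T1). Within each model the niche and distal ratios overlapped. The epithelial laminins were covered at 4.22% ± 0.42, 4.81% ± 0.15, 3.08% ± 0.36 and 3.61% ± 0.32, and the other laminins at 1.29% ± 0.08, 1.67% ± 0.11, 0.937% ± 0.01 and 1.30% ± 0.09 in the same order of groups. Their ratio was 3.27 ± 0.17, 2.89 ± 0.14, 3.29 ± 0.36 and 2.78 ± 0.30, lower in every 4T1 niche library than in every 4T1 distal library and overlapping in CT26.

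**Figure D2:**
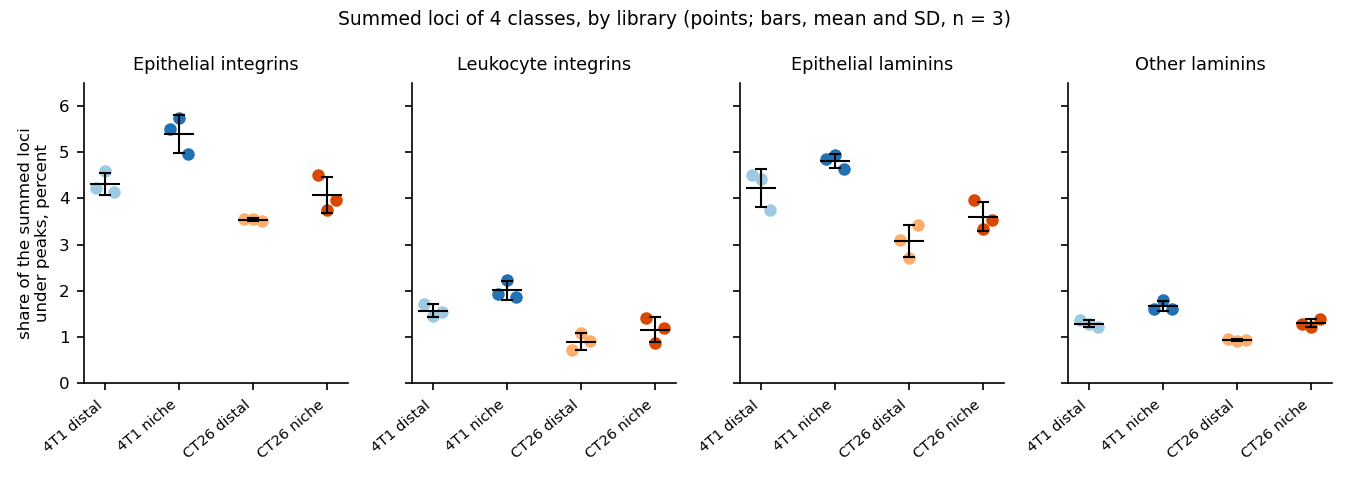
Share of the summed loci under peaks in percent (vertical axis) in each library, unscaled, for 4 classes of members in the 4 groups (points, libraries; bars, mean and SD, n = 3). The epithelial classes lie between 2.71% and 5.74% and the leukocyte integrins and other laminins between 0.711% and 2.24%, and the means of all 4 classes are lowest in CT26 distal and highest in 4T1 niche.

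Niche against distal cells: within a single model no member passed, and over both models Lamc1, Itgb3 and Lama2 passed, all higher in the niche. The limma fit ran over 16823 loci with 37 members among them (Itgb2l was left out, with a peak in 2 4T1 niche libraries only), and passing means an adjusted p (Benjamini-Hochberg) under 0.05. In 4T1, 0 of 37 members passed (0.624% of all loci did, 0.594% higher and 0.0297% lower), and 8 were higher and none lower at an unadjusted p under 0.05 (6.16% and 7.23% of all loci). In CT26, 0 of 37 passed (0.672% of all loci, 0.523% higher and 0.149% lower), with 5 higher and 6 lower at an unadjusted p under 0.05 (7.73% and 11.3% of all loci). Over both models 3 of 37 passed and all 3 were higher (2.38% of all loci, 1.5% higher and 0.886% lower). The median log2 change of the members was 0.03 over both models, against -0.04 over all loci. Without scaling the median over all loci moved to 0.15 and that of the members to 0.22. Then 14 members passed over both models, and over all loci 3956 passed higher and 25 lower, against 252 and 149 after scaling. Within CT26 the split over all loci moved from 88 higher and 25 lower to 2011 and 16.

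Lamc1 (gamma-1 chain, chromosome 1, 153218922 to 153332786) held 7.05, 6.84 and 6.64 kb in 4T1 distal, 9.04, 10.5 and 8.75 in 4T1 niche, 4.18, 3.72 and 3.96 in CT26 distal, and 6.30, 6.41 and 6.93 in CT26 niche libraries. Its niche libraries lay above the distal libraries of the same model in both models, but the 4T1 distal and CT26 niche libraries overlapped. After scaling, the log2 change was 0.32 ± 0.06 (± SE, limma adjusted p = 0.0270), with 0.24 in 4T1 and 0.41 in CT26. The adjusted p was above 0.05 without any of the 3 4T1 distal libraries or of 4T1 niche libraries 2 and 3, in turn, and held without each of the other 7.

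Itgb3, which pairs with Itga2b on platelets and with Itgav on endothelium and other cells (chromosome 11, 104608000 to 104670476), held 3.08, 3.09 and 3.50 kb in 4T1 distal, 5.21, 5.42 and 4.84 in 4T1 niche, 1.58, 2.29 and 2.52 in CT26 distal, and 3.99, 4.08 and 3.34 in CT26 niche libraries. After scaling, the lowest niche library (3.67 kb) lay above the highest distal library (3.52 kb), so the sites did not overlap. The change was 0.45 ± 0.10 (limma adjusted p = 0.0383), and of the 12 fits that each left out a library the call held in 4, those without a CT26 distal library or without CT26 niche library 3. Its partner Itga2b did not pass (0.04 ± 0.07, limma adjusted p = 0.762). The endothelial marker Pecam1 also passed higher in the niche over both models (0.70 ± 0.16, limma adjusted p = 0.0433), while Emcn had no peak in any library and Cdh5 a peak in 4. Of the 4 tested endothelial markers, 2 had a positive and 2 a negative change over both models (median 0.01). The summed endothelial loci were covered at 1.53% to 1.66% in 4T1 distal, 2.18% to 2.78% in 4T1 niche, 1.13% to 1.31% in CT26 distal and 1.23% to 1.77% in CT26 niche libraries. The platelet loci were covered at 2.87% to 3.35%, 2.97% to 3.34%, 2.20% to 2.77% and 2.72% to 3.55% in the same order. After scaling, the mean endothelial shares were 1.52%, 1.97%, 1.53% and 1.55% in the same order, and the platelet shares 2.98%, 2.59%, 3.11% and 3.27%. The part of endothelial or platelet cells in the Itgb3 change was not tested.

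Lama2 (chromosome 10, 26981285 to 27617191) had a single region, in 7 libraries, and held 0.427, 0 and 0 kb in 4T1 distal, 0.339, 0.669 and 0.679 in 4T1 niche, 0, 0 and 0 in CT26 distal, and 0.529, 0.350 and 0.287 in CT26 niche libraries. All niche libraries had the peak, and of the distal libraries only 4T1 distal library 1 had it. The fitted change of 0.75 (limma adjusted p = 0.0399) depends on the added 500 bp (1.99 with 100 bp and 0.24 with 2000 bp) and is no fold, since CT26 distal had no peak. That group has no spread, which can make the p too small, and the call held in 1 of 12 fits that each left out a library, that without 4T1 distal library 1. With peaks of a deposited -log10 q of at least 5, and with peak numbers made equal (42067 strongest peaks of each library), Lamc1, Itgb3 and Lama2 all missed the threshold. Of the 5 fibroblast markers, 4 had a positive change between the sites over both models (median 0.37) and none passed, and the fibroblast gene Tcf21 had a peak in 3 4T1 niche libraries, 1 CT26 niche library and no distal library. The summed fibroblast loci were covered at 1.97% to 2.98% in 4T1 distal, 3.00% to 3.52% in 4T1 niche, 1.48% to 2.02% in CT26 distal and 2.31% to 3.99% in CT26 niche libraries. After scaling, their mean shares were 2.31%, 2.72%, 2.29% and 2.98% in the same order. The sites then overlapped in 4T1 (2.79% in distal library 1 and 2.44% in niche library 1). In CT26 they did not (2.52% in distal library 1 and 2.55% in niche library 2). The part of fibroblasts in the Lamc1 and Lama2 changes was not tested.

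**Figure D3:**
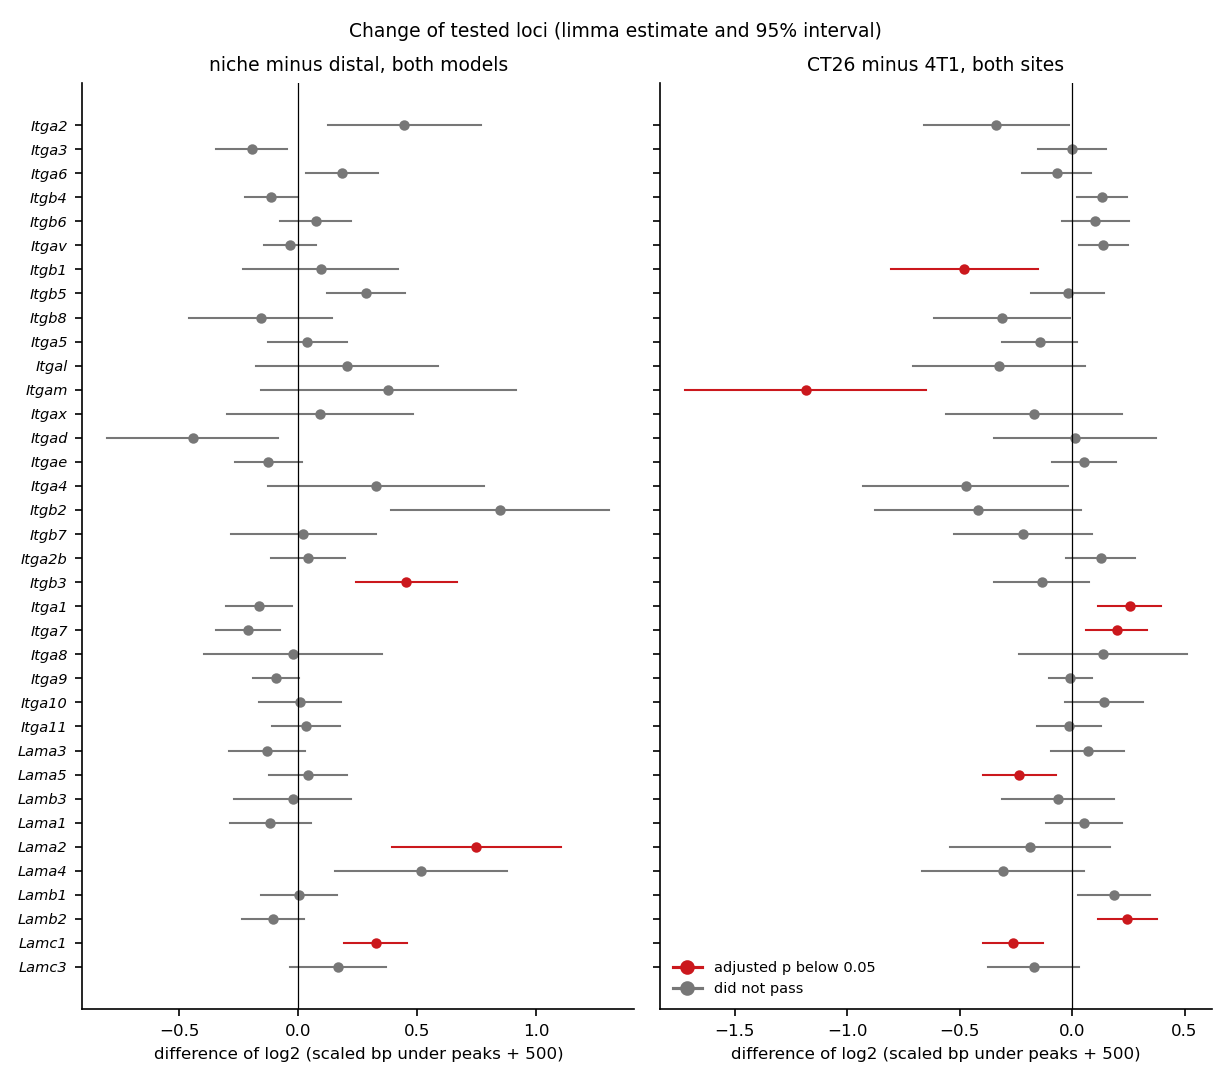
Log2 change of the scaled length under peaks (+ 500 bp) for tested loci, niche minus distal over both models (left) and CT26 minus 4T1 over both sites (right), with limma estimates and 95% intervals; red passed at an adjusted p under 0.05. On the left Lamc1, Itgb3 and Lama2 passed, on the right 7 loci passed, of which Itga1, Itga7 and Lamb2, here higher in CT26, turn negative without scaling.

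None of the 5 epithelial integrins passed in a comparison of the sites, and without scaling Itga2, Itga6 and Itgb6 passed over both models, all higher in the niche (0.59, 0.40 and 0.30). Itga6 (alpha-6) held 3.75, 3.52 and 3.55 kb in 4T1 distal, 4.54, 5.17 and 4.81 in 4T1 niche, 2.87, 2.70 and 2.20 in CT26 distal, and 3.88, 3.59 and 3.38 in CT26 niche libraries. After scaling, every niche library (3.66 to 4.21 kb) lay above every distal library (2.70 to 3.64 kb), with a change of 0.18 ± 0.07 over both models (limma adjusted p = 0.138; 95% interval 0.03 to 0.34). Itgb6 held 6.70, 7.52 and 5.99 kb in 4T1 distal, 8.88, 9.28 and 7.86 in 4T1 niche, 5.12, 6.29 and 5.97 in CT26 distal, and 7.92, 6.14 and 7.00 in CT26 niche libraries. Its scaled values overlapped between the sites, and the change was 0.07 ± 0.07 (limma adjusted p = 0.529; interval -0.08 to 0.22).

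Itga3 held 4.39, 5.75 and 5.44 kb in 4T1 distal, 6.26, 5.62 and 4.87 in 4T1 niche, 4.39, 3.88 and 4.35 in CT26 distal, and 4.44, 3.84 and 3.90 in CT26 niche libraries, and the sites overlapped before scaling. Its change of -0.20 ± 0.07 over both models (limma adjusted p = 0.116) became 0.02 without scaling. Itgb4, the hemidesmosome subunit, held 3.44, 3.82 and 3.54 kb in 4T1 distal, 4.53, 4.22 and 3.71 in 4T1 niche, 3.59, 2.98 and 3.27 in CT26 distal, and 3.69, 3.08 and 3.27 in CT26 niche libraries, again with overlap before scaling. Its change of -0.11 ± 0.05 (limma adjusted p = 0.196) became 0.10 without scaling. Itga2 gave 0.45 ± 0.15 (limma adjusted p = 0.102).

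Of the widely expressed subunits, Itgb5, a vitronectin receptor subunit that pairs with Itgav, was nearest to passing, with a change of 0.28 ± 0.07 over both models (limma adjusted p = 0.0626). Itgav held 7.05, 6.45 and 6.33 kb in 4T1 distal, 6.97, 7.07 and 6.63 in 4T1 niche, 5.56, 4.61 and 5.22 in CT26 distal, and 6.73, 6.75 and 6.09 in CT26 niche libraries. Its niche libraries were above the distal ones in CT26 before scaling and overlapped in 4T1, and the scaled change was -0.03 ± 0.05 (limma adjusted p = 0.704).

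Of the leukocyte integrins, Itgb2, the common beta subunit of the leukocyte-specific integrins (chromosome 10, 77530329 to 77565708), held 0, 0 and 0.528 kb in 4T1 distal, 0.779, 1.30 and 1.40 in 4T1 niche, 0, 0 and 0.294 in CT26 distal, and 0.362, 0.313 and 0.352 in CT26 niche libraries. It was above the distal values in all 4T1 niche libraries, was low in all CT26 niche libraries, and had no peak in 4 of 6 distal libraries. The change over both models was 0.85 ± 0.21 and missed the threshold (limma adjusted p = 0.0551). It was 1.97 with 100 bp added, 0.30 with 2000 bp and -0.03 with equal peak numbers. Of the length covered at this locus 30.0% lies within Itgb2, and its region held by all 4T1 niche and no 4T1 distal libraries lies beyond the gene (77570105 to 77570798). Itgal, the alpha subunit of the lymphocyte integrin, held 0.240, 0.282 and 0.217 kb in 4T1 distal, 0.362, 0.637 and 0.319 in 4T1 niche, 0, 0.246 and 0 in CT26 distal, and 0.205, 0 and 0.353 in CT26 niche libraries, with all 4T1 niche libraries above all 4T1 distal libraries and overlap of the sites in CT26 (0.20 ± 0.18, limma adjusted p = 0.489). Over the 8 tested leukocyte integrins the median change was 0.15 (0.25 without scaling, and -0.03 with equal peak numbers, where 7 were tested), and over the 5 epithelial integrins 0.07 (0.30 without scaling and 0.09 with equal peak numbers). Of 10 leukocyte markers 8 had a tested locus, and none passed between the sites.

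The epithelial laminins did not pass between the sites either. Lama3 held 5.08, 5.64 and 3.87 kb in 4T1 distal, 6.03, 4.79 and 5.52 in 4T1 niche, 4.40, 3.72 and 4.28 in CT26 distal, and 4.87, 3.98 and 3.78 in CT26 niche libraries. Lamb3 held 2.21, 2.20 and 2.08 kb in 4T1 distal, 2.58, 1.86 and 2.10 in 4T1 niche, 1.92, 0.948 and 1.36 in CT26 distal, and 1.70, 1.80 and 2.00 in CT26 niche libraries. The sites overlapped for both genes in at least 1 model, and the changes over both models were -0.13 ± 0.07 and -0.02 ± 0.11 (limma adjusted p = 0.287 and 0.917). Lama4, the vessel chain, had peaks in 3 4T1 niche libraries and 1 CT26 niche library and in no distal library, and missed the threshold (limma adjusted p = 0.0955). The size of its change depends on the added 500 bp, and the distal groups have no spread there, which can make the p too small. The class medians of the changes over both models were -0.02 for the 4 epithelial laminins, 0.17 for the other 7 laminins (2 passed, Lamc1 and Lama2), 0.04 for the 5 widely expressed integrins and -0.06 for the 6 mesenchymal and muscle integrins, with none passing in these last 2 classes.

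CT26 against 4T1: 7 members passed over both sites, the leukocyte subunit Itgam with the largest difference among them. Itgam, Itgb1, Lamc1 and Lama5 were lower in CT26, and after scaling Lamb2, Itga1 and Itga7 were higher. This is 7 of 37 tested members, against 24.1% of all loci (19.2% higher and 4.89% lower). The median difference of the members was -0.02, against 0.08 over all loci. Without scaling all 24 members that passed were lower in CT26, with medians of -0.35 for the members and -0.21 for all loci, and over all loci 21 passed higher and 7788 lower, against 3229 and 822 after scaling.

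Itgam, the alpha subunit of the myeloid complement receptor (chromosome 7, 128062640 to 128118491), held 1.93, 1.42 and 1.85 kb in 4T1 distal, 1.49, 2.74 and 1.27 in 4T1 niche, 0, 0.480 and 0 in CT26 distal, and 1.38, 0.639 and 0.318 in CT26 niche libraries. CT26 distal libraries 1 and 3 had no peak, and the models overlapped through CT26 niche library 1. The difference was -1.19 ± 0.25 (limma adjusted p = 0.0100), it passed in all 12 fits that each left out a library, and it was -0.47 (limma adjusted p = 0.345) with equal peak numbers. Its size depends on the added 500 bp, since 2 libraries are at 0: it was -2.05 with 100 bp and -0.53 with 2000 bp. The peaks lie within the gene and beyond its end, none at its start site, and the region beyond the end (chromosome 7, 128118911 to 128119762) is shared with the Itgax locus. Of 8 tested leukocyte markers, Cd3e was also lower in CT26 (-1.81 ± 0.20, limma adjusted p = 0.00232), Lck was higher after scaling (0.29 ± 0.06, limma adjusted p = 0.00982; -0.02 without scaling) and the other 6 did not pass. At Cd3e, 0 CT26 distal libraries and 1 CT26 niche library had a peak, so the size of its difference depends on the added 500 bp. CT26 distal has no spread there, which can make the p too small. Ptprc had no peak in any 4T1 library. The summed leukocyte marker loci were covered at 4.34% to 4.71% in 4T1 distal, 4.51% to 5.11% in 4T1 niche, 3.12% to 3.54% in CT26 distal and 3.34% to 4.52% in CT26 niche libraries. After scaling, their mean shares were 4.32%, 4.05%, 4.29% and 4.13% in the same order, close to level. The part of leukocytes in the Itgam difference was not tested.

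Itgb1, the beta subunit of most matrix integrins (chromosome 8, 128685654 to 128733579), held 2.39, 2.70 and 1.95 kb in 4T1 distal, 2.19, 3.27 and 3.40 in 4T1 niche, 1.21, 1.03 and 1.20 in CT26 distal, and 2.72, 1.005 and 1.22 in CT26 niche libraries. The models overlapped through CT26 niche library 1, and the other 5 CT26 libraries lay below all 4T1 libraries. The difference was -0.48 ± 0.15 (limma adjusted p = 0.0386). A region 17500 bp past the start site (128703154 to 128705074) was held by all 6 4T1 libraries, by CT26 niche in 1 library and by CT26 distal in none, whereas the start site was open in all. The call held in 3 of 12 fits that each left out a library (those without 4T1 distal 3, 4T1 niche 1 or CT26 niche 1). With peaks of a -log10 q of at least 5 the difference turned to 0.20 and passed in the opposite direction, higher in CT26.

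**Figure D4:**
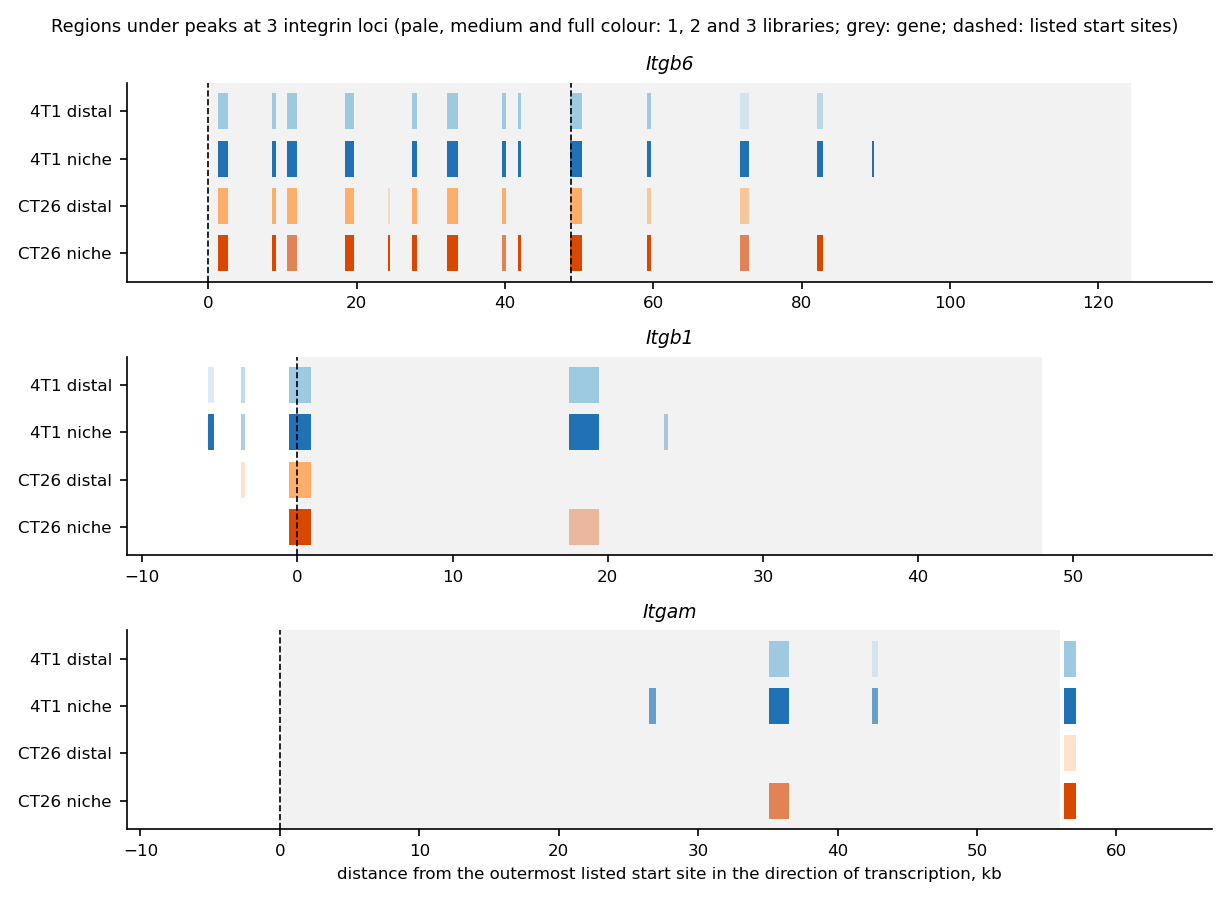
Regions under peaks along Itgb6, Itgb1 and Itgam, in kb from the outermost listed start site in the direction of transcription (dashed lines, listed start sites; grey, the gene), in rows by group, coloured pale, medium or full for 1, 2 or 3 libraries. The internal start site of Itgb6 and the start site of Itgb1 lie under a region in every group, that of Itgam in none, and the second large region of Itgb1 is held by all 6 4T1 libraries.

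Lamc1 was also lower in CT26, with a difference of -0.26 ± 0.06 (limma adjusted p = 0.0145), with scaled values of 6.32 to 8.54 kb in 4T1 and 4.85 to 7.62 kb in CT26 that overlap. It passed in all 12 fits that each left out a library and was 0.04 with the stricter q. Lama5, the alpha-5 chain of alveolar basement membrane (chromosome 2, 180176373 to 180225904), held 8.10, 7.45 and 6.93 kb in 4T1 distal, 8.28, 9.80 and 8.62 in 4T1 niche, 4.53, 3.96 and 5.84 in CT26 distal, and 7.13, 5.66 and 5.12 in CT26 niche libraries. Before scaling the models overlapped through CT26 niche library 1, and the scaled difference was -0.23 ± 0.07 (limma adjusted p = 0.0416). It passed in 3 of 12 fits that each left out a library, those without 4T1 niche 1, CT26 distal 3 or CT26 niche 1.

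The 3 loci that were higher in CT26 after scaling had the reverse sign without it. Lamb2 (beta-2 chain, chromosome 9, 108479847 to 108490530) held 2.55, 2.64 and 2.54 kb in 4T1 distal, 2.84, 2.78 and 2.63 in 4T1 niche, 2.35, 2.34 and 2.49 in CT26 distal, and 2.52, 2.50 and 2.91 in CT26 niche libraries, and the models overlapped. The difference was 0.25 ± 0.06 after scaling (limma adjusted p = 0.0163) and -0.07 without. Itga1, a collagen receptor subunit (chromosome 13, 114958079 to 115101964), held 2.78, 2.88 and 2.95 kb in 4T1 distal, 2.90, 3.19 and 3.16 in 4T1 niche, 2.64, 2.93 and 2.92 in CT26 distal, and 2.77, 2.78 and 2.93 in CT26 niche libraries, and the models overlapped. Its difference was 0.26 ± 0.06 after scaling (limma adjusted p = 0.0177) and -0.06 without. Itga7, the laminin receptor subunit of muscle (chromosome 10, 128933421 to 128958286), held 3.40, 3.34 and 3.17 kb in 4T1 distal, 3.33, 3.54 and 3.14 in 4T1 niche, 3.62, 2.64 and 2.84 in CT26 distal, and 3.29, 2.96 and 2.73 in CT26 niche libraries, with overlap of the models. Its difference was 0.20 ± 0.06 after scaling (limma adjusted p = 0.0377) and -0.13 without, and of the 12 fits that each left out a library the call held in 3, those without a CT26 distal library. None of the 7 differences passed with equal peak numbers.

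**Figure D5:**
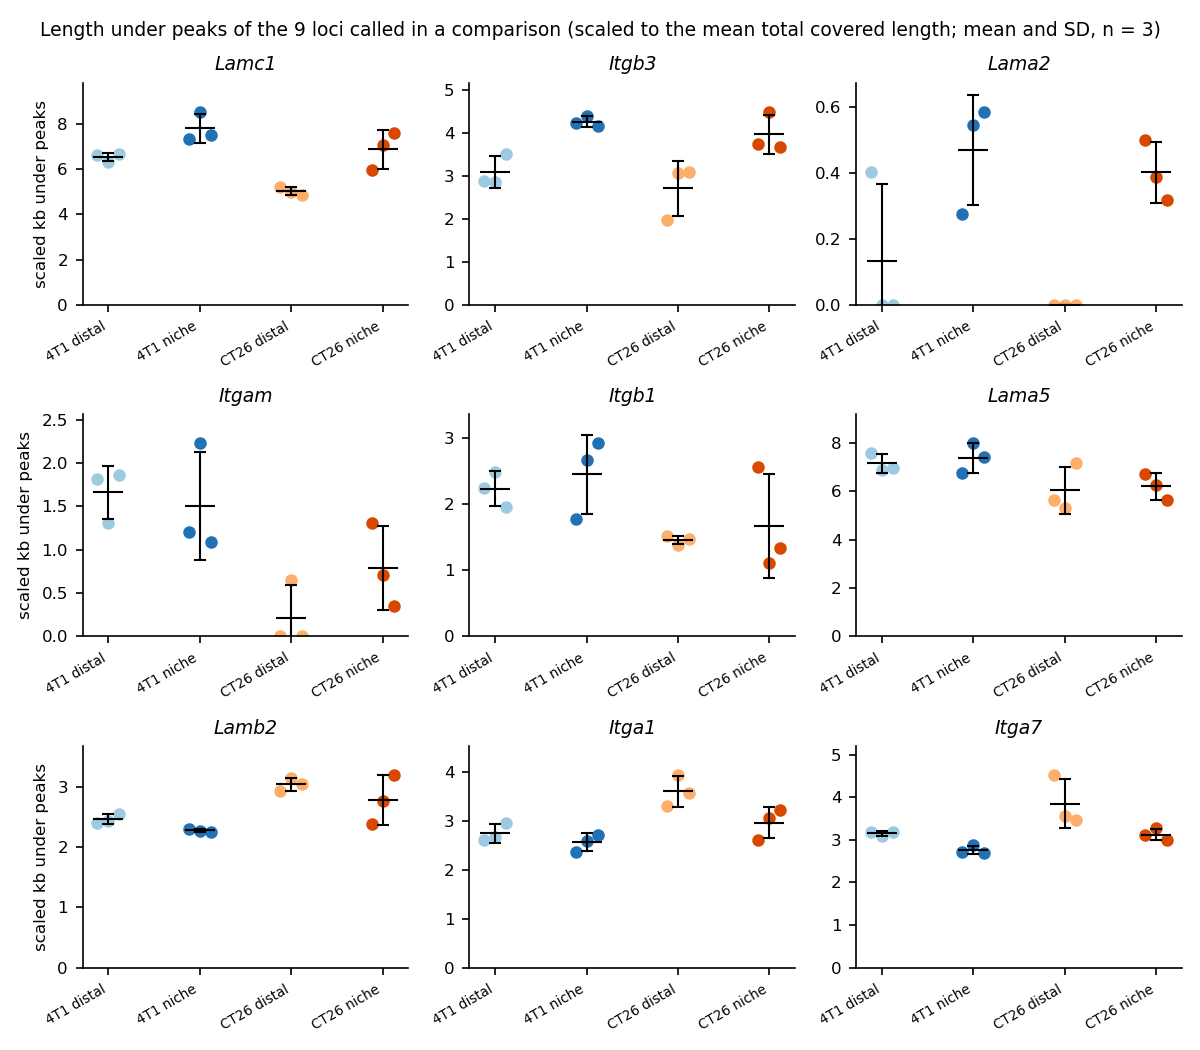
Scaled kb under peaks in each library for the 9 loci that passed in a comparison, by group (points, libraries; bars, mean and SD, n = 3). Itgb3 is at 3.67 kb or more in all niche libraries and at 3.52 kb or less in all distal libraries, Itgam is at 0 in 2 CT26 distal libraries, and the higher CT26 values of Lamb2, Itga1 and Itga7 turn to lower values without scaling.

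The difference between the niche effects of the models passed for 0 of 37 members (0.0594% of all loci, 0.0178% higher and 0.0416% lower in CT26), with none higher and 1 lower in CT26 at an unadjusted p under 0.05 (4.37% and 4.43% of all loci). That locus was Lamc3, a gamma chain, with 0.40 ± 0.13 in 4T1 and -0.07 ± 0.13 in CT26 (difference -0.48 ± 0.18, limma adjusted p = 0.457). For Itgb6 the difference was -0.16 with a 95% interval of -0.45 to 0.14, and for Itgb1 the interval was -0.66 to 0.65, so differences of moderate size in either direction remain within the intervals.

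Peaks of all libraries, merged where they overlapped by at least 1 bp, gave 251 regions at the member loci, of which 100 (39.8%) were held by all 12 libraries, against 42.1% of 83727 regions in all. In 4T1, 10 of 246 regions (4.07%) were held by all 3 niche and no distal library, against 2.72% of all regions, and 1, in Itga9, by all 3 distal and no niche library (0.15% of all regions). In CT26, 5 of 185 (2.70%) were niche-only, against 1.96%, and none was distal-only (0.172%). No member region was niche-only in both models (0.0979% of all regions), distal-only in both (0.00478%) or held by all CT26 and no 4T1 library (0.00239%). In Lamb3, the niche-only region of CT26 lay 7700 bp past the start site (chromosome 1, 193309943 to 193310971) and was also held by all 6 4T1 libraries. In Itgb6, 2 regions were niche-only in CT26 (chromosome 2, 60639673 to 60640586 and 60680433 to 60680893), the latter being held by all 6 4T1 libraries, and 1 other was niche-only in 4T1 (60632810 to 60633148). Lamc1 had 13 regions, of which 2 were niche-only in 4T1 (153226012 to 153226555 and 153292298 to 153292584), 1 niche-only in CT26 (153304618 to 153305126) and 1 held by all 4T1 and no CT26 library (153325972 to 153326627; 0.299% of all regions). The single region of Lama2 (chromosome 10, 26995758 to 26996443) was niche-only in CT26. With equal peak numbers, 2 of 162 member regions (1.23%) were niche-only in 4T1, against 1.04% of all regions, and 1 of 151 (0.662%) in CT26, against 1.13%.

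Of 37 adaptor, basement membrane and laminin receptor genes, 1 was higher and 1 lower in the niche over both models, against 1.5% and 0.886% of all loci. Col17a1, the transmembrane collagen of hemidesmosomes (chromosome 19, 47646341 to 47692042), held 0.375 ± 0.150 kb in 4T1 distal, 0.880 ± 0.320 in 4T1 niche and 0.515 ± 0.154 in CT26 niche, and no peak in CT26 distal (mean ± SD, n = 3). Its fitted change was 0.78 ± 0.14 over both models and 1.05 ± 0.20 in CT26 (limma adjusted p = 0.0239 and 0.0447), values that depend on the added 500 bp. CT26 distal has no spread at Col17a1, which can make the p too small. Ilk, the integrin-linked kinase, changed by -0.22 ± 0.05 (limma adjusted p = 0.0367) and by 0.01 without scaling. Its coverage before scaling was 5.21 ± 0.108 kb in 4T1 distal, 5.32 ± 0.157 in 4T1 niche, 4.56 ± 0.303 in CT26 distal and 4.50 ± 0.371 in CT26 niche.

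Between the models 3 of the 37 were higher and 4 lower in CT26, against 19.2% and 4.89% of all loci. The laminin receptor dystroglycan, Dag1, held 5.63 ± 0.379 kb in 4T1 distal, 6.52 ± 0.315 in 4T1 niche, 2.90 ± 0.162 in CT26 distal and 3.89 ± 0.107 in CT26 niche (difference -0.43 ± 0.06, limma adjusted p = 0.00732), and every CT26 library lay below every 4T1 library. Col17a1 (-0.50), the focal adhesion kinase Ptk2 (-0.19) and the actin-linking parvin Parva (-0.35) were also lower (limma adjusted p = 0.0271, 0.0187 and 0.0479). The limits given above for Col17a1 hold here too, since CT26 distal had no peak. The tetraspanin Cd151, a partner of laminin-binding integrins (0.25), Ilk (0.14) and Sharpin (0.19) were higher after scaling (limma adjusted p = 0.0311, 0.0431 and 0.0463) and gave -0.10, -0.20 and -0.13 without it.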

How the data were processed

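Each library's list of broad peaks was deposited by the authors in GRCm38 coordinates. MACS2 and bedtools are named, without versions, per the submitters' processing notes, and no aligner, filter or setting is given in the labels. Starts and ends were used as deposited by the authors (in bp), with the fold enrichment of a peak over its background (a ratio) and its -log10 p and -log10 q as deposited. Read counts are not in the lists, so depth is unknown and no counting interval was computed. Loci lie on chromosomes 1 to 19 and X.

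Lengths under peaks were summed over each of 21631 loci, scaled to the mean total covered length, and log2 values (+ 500 bp) went into a limma fit (version 3.58.1, R 4.3.3; lmFit on 4 group means, eBayes with trend, 8 residual degrees of freedom) for 16823 loci, those where 3 or more libraries had a peak. The 5 comparisons were adjusted by Benjamini-Hochberg over all loci tested, and log2 changes are on this scale. Every change printed comes from this fit unless another setting is named. The fit was tested on simulated data, with normal noise around a single mean per locus and changes planted in 4T1 niche only. Groups without a peak and unequal list lengths were not simulated, so that test does not bear on them. Samples were grouped by their titles, and the design text calls the 3 per group independent.

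Members, classes, markers and the list of 37 partner genes were chosen with earlier results of these data known. Members were given in full if they passed in a comparison or belonged to a set of 13 epithelial, leukocyte and laminin genes always given; partner genes were named if they passed. The values of 1 member are not reported here; it stays in the counts and class values. Alternatives tried were other scaling, added lengths, filters, flanks, peak thresholds, equal peak numbers, a replicate block and leaving out each library.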

Additional observations from a re-analysis of the deposited data

How the results depend on the processing

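Peak lists without read counts limit these results, since many calls changed with scaling and list length. Without scaling, 5 members passed in 4T1, 6 in CT26, 14 over both models and 24 between the models; Itga1 (-0.063), Itga7 (-0.13) and Lamb2 (-0.069) reversed between the models, and Itga3 (0.025) and Itgb4 (0.10) between the sites. With a -log10 q of at least 5, 1 member passed over both models (Itga5, lower) and 13 between the models, where Itgb1 (0.20, limma adjusted p = 0.0384) and Lamc1 (0.037) reversed, and niche-only regions fell to 5 in 4T1 and 1 in CT26. With peak numbers made equal, 1 member passed in 4T1 (Lama2), 0 over both models and 0 between the models, Itgb2 reversed (-0.030), and niche-only regions numbered 2 and 1. In CT26, a flank of 50 kb gave 2 calls (Itgad and Itgb4, lower) and the gene body alone 1 (Lamc1). Leaving out each library gave 0 to 1 calls in 4T1, 0 to 1 in CT26, 0 to 3 over both models and 4 to 8 between the models. The cause of these changes was not tested. The counts over all loci ranged, over all settings, from 26 to 569 in 4T1 (105 as reported), 8 to 2027 in CT26 (113), 81 to 3981 over both models (401), 94 to 7809 between the models (4051) and 0 to 81 for the difference of the niche effects (10).

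With the replicate number as a block, 0 members passed over both models and 5 between the models; Lamc1, Itgb3 and Lama2 lost their calls between the sites and Itgb1 and Lama5 theirs between the models, and no other call of a member changed with the block. Deviations of same-numbered distal and niche samples correlated at 0.0285 to 0.0892 in 4T1 and -0.0441 to 0.0175 in CT26. Every 4T1 sample correlated best with its own number (3 of 3) and none did in CT26 (0 of 3), so the numbers are not shown to pair the samples.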
